A study of Penicillium oxalicum with 15 samples.

Results

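Among the 9512 genes listed in at least 1 library, 85 had, within strain EU2101 of Penicillium oxalicum, their highest expression on carbon source WB alone and a lower, similar level on the other carbon sources. They were chosen from FPKM values (read fragments per unit of gene length and of sequencing depth, with an unlisted gene at 0) by ratios of group means, 1 FPKM being added to each mean. In strain EU2101 the WB mean had to be at least 2 times both the WB plus AV mean and the WR mean, the ratio of WR to WB plus AV had to lie between 0.5 and 2, the WB mean had to reach 10 FPKM, and all 3 WB libraries had to lie above all WB plus AV and all WR libraries. The ratio of strain MuPOX03016 to strain MuKu70 had to lie between 0.5 and 2. Since these values made the choice, the levels on the carbon sources are a description, and counts of test calls on them are given as one too.

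The fungus is a filamentous ascomycete known for secreted enzymes that digest plant cell walls. It was grown in solid-state culture, on moist particles without free liquid, for 5 days at 28 °C. RNA of whole mycelium was sequenced from 5 groups of 3 libraries, namely EU2101 on WB plus AV, EU2101 on WR, EU2101 on WB, MuPOX03016 on WR and MuKu70 on WR. WB is read here as wheat bran, AV as Avicel and WR, which the EU2101 titles write as WB_RS, as bran with rice straw. The labels give the letters only, and in one field they write WA where the titles have AV. Neither the making of the strains nor whether replicates were separate cultures is given in the labels, so p-values measure only how far these samples scatter, possibly for technical reasons. In RNA of whole mycelium, fewer hyphae expressing a gene and less RNA per hypha cannot be told apart.

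Wheat bran, the outer layers of the grain, offers starch and protein beside hemicellulose and cellulose, whereas Avicel is purified crystalline cellulose and rice straw is lignified stem and leaf. Filamentous fungi adjust genes for secreted enzymes, nutrient uptake and metabolism to the carbon source, partly by repression while easily used sugars are present and partly through activators that respond to breakdown products of the polymers. Ku70 takes part in joining broken DNA ends, and POX03016 is the identifier of the gene after which the other mutant is named. The genes are given by identifier alone, since none could be paired with a gene name, and no function is attached to any of the 85.

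Total estimated counts per library were 1863613 to 3152409 on WB plus AV, 3372763 to 3414915 on WR, 1782848 to 2417284 on WB, 6609605 to 7138801 in MuPOX03016 and 6753528 to 7335888 in MuKu70. POX03016 stood at 17.9 to 19.9 FPKM in MuPOX03016 and at 87.4 to 139 FPKM in MuKu70, so the library labels and the level of this gene went together. WB replicate 1 stood apart from the rest of its group across all genes: it correlated at r = 0.889 and 0.894 with WB replicates 2 and 3 but at 0.934 to 0.950 with the 3 WB plus AV libraries (log2 scale). Whether the label of this library is right cannot be told from the files, and it is called WB replicate 1 as labelled. Its own values are shown for the genes described in most detail, and the summaries over the list are also given without it.

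The 85 genes took 2.93 ± 0.67% of the FPKM sum on WB plus AV, 2.44 ± 0.11% on WR and 7.32 ± 2.66% on WB (SD, n = 3 each). By library, the share was 2.36, 3.67 and 2.75% for replicates 1, 2 and 3 on WB plus AV. It was 2.49, 2.32 and 2.52% on WR and 4.25, 8.69 and 9.01% on WB, with a WB mean of 8.85% without replicate 1. WB plus AV replicate 2 and WB replicate 1 were the closest libraries of these 2 groups. In the mutants the same genes held 1.10 ± 0.04% in MuPOX03016 and 1.28 ± 0.08% in MuKu70, below every EU2101 library. There the 2 genes most abundant on WB took 0.22 ± 0.01% and 0.30 ± 0.04% of the FPKM sum. The other 83 took 0.88 ± 0.04% and 0.97 ± 0.03%. Gene models differed in part between the EU2101 and the mutant libraries, and 2 members were listed in no mutant library.

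**Figure D1:**
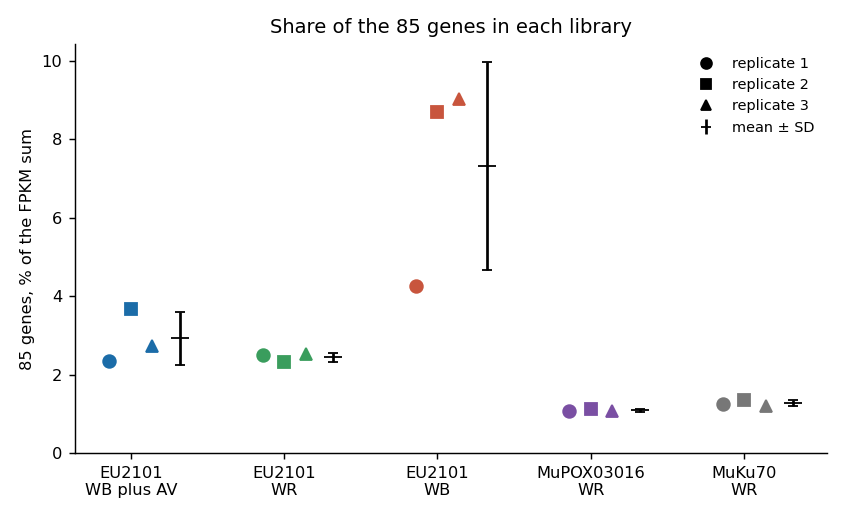
Share of the summed FPKM (y axis, %) taken by the 85 genes in each of the 15 libraries, with the mean ± SD of each group beside its points. WB replicates 2 and 3 lie at 8.69 and 9.01%, WB replicate 1 at 4.25%, and all 6 mutant libraries lie below 1.4%.

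Mean levels on WB ran between 12.7 and 14643 FPKM with a median of 258 FPKM, and 11 of the 85 genes reached 1000 FPKM while 4 stayed under 20 FPKM. The median log2 ratio of WB plus AV to WB was -1.26, or 0.416 of the WB level, with a range of -2.41 to -1.01 over the 85. That of WR to WB was -1.47, or 0.362 of the WB level, with a range of -2.72 to -1.01. Over the 7246 genes with a WB mean of at least 10 FPKM, the corresponding medians were 0.02 and -0.09. Without WB replicate 1 the medians of the list were -1.45 and -1.67, that is, a larger gap to WB in both comparisons.

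The levels of the most abundant member show the common pattern. POX06753 had 3149, 8256 and 3555 FPKM on WB plus AV, 4325, 4005 and 3654 FPKM on WR, and 8286, 20254 and 15390 FPKM on WB. WB plus AV replicate 2 and WB replicate 1 nearly met, the narrowest separation in the list, and the other 2 WB libraries stood well above both. POX00089, next in abundance, had 5564, 6894 and 5484 FPKM on WB plus AV, 6290, 4285 and 6236 FPKM on WR, and 7710, 14776 and 17709 FPKM on WB. These 2 genes alone made up 1.28 ± 0.40% of the FPKM sum on WB plus AV, 1.07 ± 0.13% on WR and 3.25 ± 1.34% on WB (4.02% without WB replicate 1). The other 83 showed the same order, with 1.64 ± 0.28%, 1.38 ± 0.05% and 4.07 ± 1.32% (4.83% without WB replicate 1).

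The 6 genes that follow in abundance differed in how their WB libraries were spread. POX06884 was even on WB, with 1817 ± 375 FPKM on WB plus AV, 1813 ± 164 FPKM on WR, and 3372, 4297 and 3695 FPKM on WB. POX03113 averaged 942 ± 398 FPKM on WB plus AV, 878 ± 113 FPKM on WR and 2800 ± 1190 FPKM on WB, with 1429 FPKM in WB replicate 1 against 3570 and 3400 FPKM in the other 2 WB libraries. POX00835 stood at 540 ± 145 FPKM on WB plus AV, 350 ± 19 FPKM on WR, and 996, 1928 and 2354 FPKM on WB. POX06646 averaged 430 ± 92 FPKM on WB plus AV and 404 ± 25 FPKM on WR, and had 753, 1579 and 1934 FPKM on WB. In POX00835 and POX06646 WB replicate 1 was the lowest WB library, and it was so too in POX04991, with 493 ± 186 FPKM on WB plus AV, 397 ± 30 FPKM on WR, and 709, 1525 and 1280 FPKM on WB. POX00659 averaged 427 ± 137 FPKM on WB plus AV and 407 ± 35 FPKM on WR, and had 1422, 1159 and 1044 FPKM on WB. It was the one of the 8 with its highest value in WB replicate 1.

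**Figure D2:**
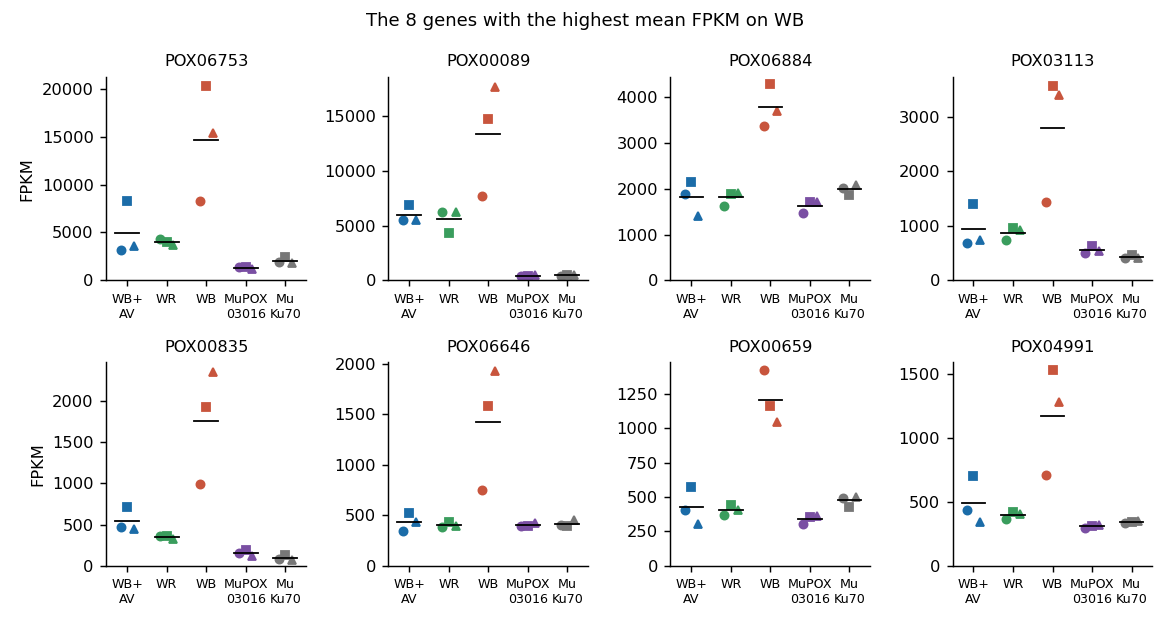
FPKM (y axis, starting at 0) of the 8 genes with the highest WB mean in each library, circles, squares and triangles standing for replicates 1, 2 and 3 and bars for group means. WB replicate 1 is the lowest WB library in 7 of the 8 panels and the highest in that of POX00659.

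Ranked by the smaller of their differences to WB plus AV and to WR, the 8 genes with the widest gap held places between 6 and 82 of 85 by WB mean. POX00498 had 44.9, 80.7 and 70.0 FPKM on WB plus AV, 50.7, 88.8 and 76.9 FPKM on WR, and 120, 424 and 405 FPKM on WB, a log2 ratio of -2.26 for WB plus AV and -2.12 for WR. POX00860 had 24.2, 90.1 and 58.3 FPKM on WB plus AV, 64.3, 47.4 and 39.6 FPKM on WR, and 122, 347 and 265 FPKM on WB. In both genes WB replicate 1 was the lowest WB library by far. Its place above every library of the other carbon sources was a condition of the rule.

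POX03956 averaged 36.6 ± 13.1 FPKM on WB plus AV, 22.8 ± 4.0 FPKM on WR, with 64.5, 167 and 194 FPKM on WB. POX02402 averaged 163 ± 50 FPKM on WB plus AV and 155 ± 48 FPKM on WR, and had 362, 582 and 721 FPKM on WB. WB replicate 1 was again the lowest WB library in both. POX07835 had 38.4, 55.6 and 40.2 FPKM on WB plus AV, 26.9, 19.8 and 29.0 FPKM on WR, and 120, 168 and 226 FPKM on WB. It was the only 1 of the 85 whose lowest WB library was at least 2 times the highest other library, at a factor of 2.15, and over the list this factor had a median of 1.33. POX08346 and POX07850 completed the top 8 together with POX06646, with 45.3, 90.0 and 120 FPKM on WB in POX08346 and, in POX07850, 12.6 FPKM in WB replicate 1 and a WB mean of 19.4 FPKM. POX07850 rested on 7 counts on WB plus AV, 16 on WR and 37 on WB.

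**Figure D3:**
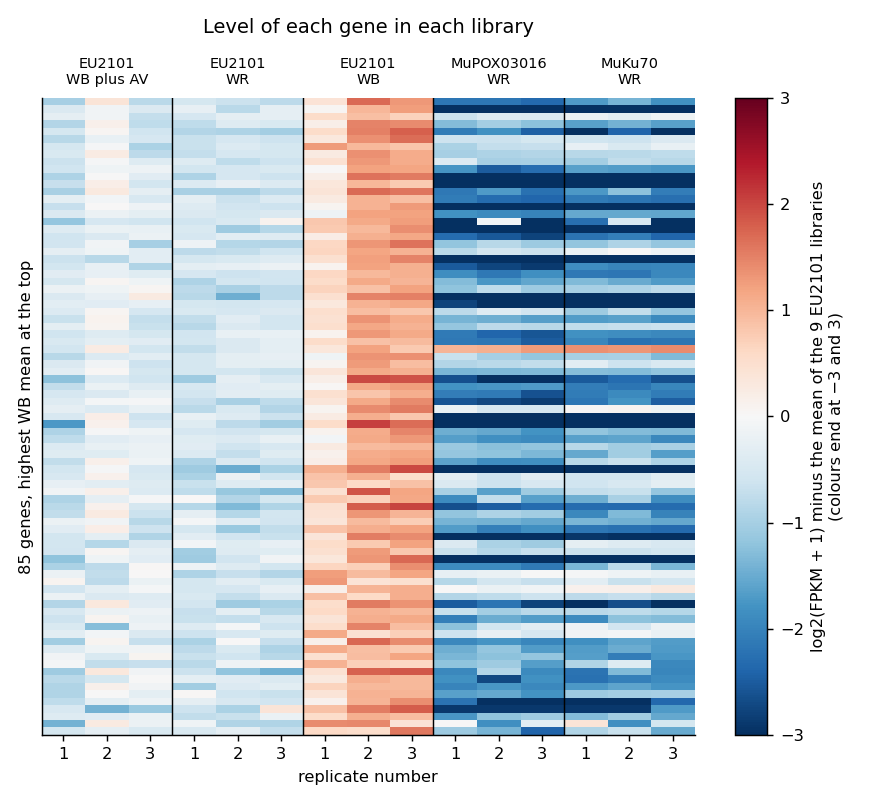
Each of the 85 genes (rows, highest WB mean at the top) in each of the 15 libraries (columns), as log2(FPKM + 1) minus its mean over the 9 EU2101 libraries. WB replicates 2 and 3 are the most raised columns, WB replicate 1 is raised less in most rows, and most rows are lower in the 6 mutant libraries than on WR in EU2101.

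The rule used single libraries, since it asked all 3 WB libraries to lie above all others, so the order of the replicates within a group is given as a description of the chosen values. WB replicate 1 was the lowest of the 3 WB libraries in 73 of the 85 genes, against 25.6% of the genes with a WB mean of at least 10 FPKM. Its ratio to the mean of WB replicates 2 and 3 had a median of 0.590 in the list, against 1.25 over the same background. WB replicates 2 and 3 exceeded the highest WB plus AV or WR library by at least 2 times in 66 and 65 genes, and WB replicate 1 did so in 10. WB plus AV replicate 2 was the highest of its group in 56 genes, against 25.2% in the background. In the WR group the highest library was replicate 1, 2 or 3 in 31, 24 and 30 genes. The part that these 2 libraries had in the choice of members can be given as a count. The same rule found 235 genes without WB replicate 1, of which 82 were among the 85, and 172 genes without WB plus AV replicate 2, again with 82 of the 85.

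A minority went the other way in WB replicate 1. POX00498, POX03009 and POX03956 had the smallest ratios of this library to the mean of the other 2 WB libraries, at 0.291, 0.355 and 0.358. POX00670, POX00842 and POX07035 had the largest, at 1.81, 1.47 and 1.34, and 10 of the 85 genes had a ratio above 1. POX00670 had 50.1, 26.9 and 41.4 FPKM on WB plus AV, 32.6, 37.8 and 34.3 FPKM on WR, and 118, 63.8 and 66.6 FPKM on WB. It also had the least typical profile of the list, with r = 0.662 to the mean profile of the 85 over the 9 EU2101 libraries, where the median was 0.950. These correlations only describe genes chosen for this pattern. POX07035 rested on 20 counts in all on WB, the fewest of the 85.

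To see the pattern in libraries that the choice had not used, the rule was applied without the libraries of 1 replicate number, and the genes so chosen were then read in those libraries. The genes chosen in this way are only partly the 85, which made up 72 of 173, 73 of 123 and 62 of 82 with the libraries numbered 1, 2 and 3 held out. With the libraries numbered 2 held out, 88 of the 123 genes chosen were at least 2 times higher in the held-out WB library than in both held-out libraries of the other carbon sources, against a background of 2.90% of all genes with a WB mean of at least 10 FPKM. With the libraries numbered 3 held out, 61 of 82 were, against 3.84%. With the libraries numbered 1 held out, 26 of 173 were, against 2.64%. The held-out WB library was above both others at any ratio in 143 of 173, 121 of 123 and 76 of 82 genes for numbers 1, 2 and 3, against 55.8, 31.4 and 31.0% of all genes. The difference of at least 2 times thus recurred in most of the chosen genes in replicates 2 and 3 and in a minority in replicate 1. The held-out libraries of 1 number are not fully separate, since WB plus AV libraries deviated together with the WB libraries and with the WR libraries of the same number.

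**Figure D4:**
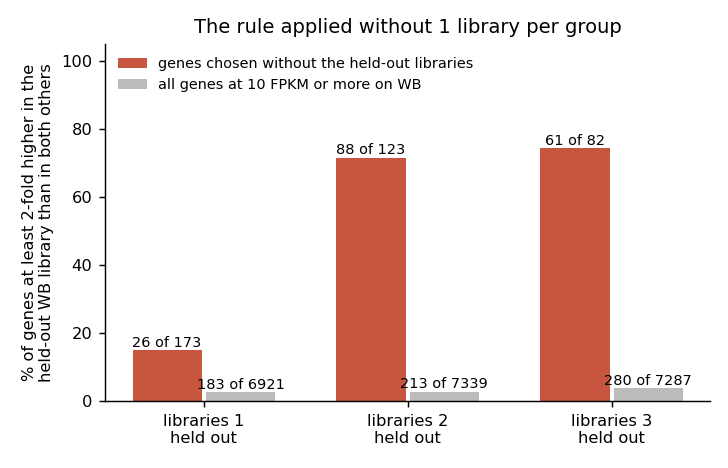
Percentage of genes (y axis) at least 2 times higher in the held-out WB library than in the held-out WB plus AV and WR libraries, for the genes chosen without those libraries and for all genes at 10 FPKM or more on WB. The bars of the chosen genes stand at 71.5 and 74.4% for numbers 2 and 3 and lowest for number 1 (26 of 173 genes), with all genes under 4%.

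On counts, edgeR's quasi-likelihood test with Benjamini-Hochberg adjustment over 8079 genes called 14 of the 84 members tested lower on WB plus AV than on WB, where it called 0.495% of all genes lower. It called 80 of 84 lower on WR than on WB, against 7.61% of all genes, and POX07035, too low in counts, was not tested. Both contrasts were used by the rule, so these counts only describe the spread around the chosen differences. Replicates of the same number deviated together on WB plus AV and WB, and with the replicate number as a block 75 members were called lower on WB plus AV, against 3.37% of all genes. Without WB replicate 1 all 84 were called lower in both comparisons, while the share of all genes called lower was 10.6% on WB plus AV and 17.6% on WR. Without any 1 of the other 8 EU2101 libraries the count on WB plus AV lay between 0 and 7, against 0 to 0.209% of all genes called lower. On WR it lay between 33 and 39 without a WR library or another WB library, against 2.27 to 2.81% of all genes. Without a WB plus AV library it lay between 69 and 78, against 6.40 to 7.69% of all genes. In each of these fits at least 83 members had an unadjusted p under 0.05. The choice on these same contrasts favours such values, so this count too is only a description.

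Levels on WB plus AV and on WR were close by choice, and 68 of the 85 genes had the lower mean on WR, against 59.2% of the genes with a WB mean of at least 10 FPKM. POX03627 was nearest to the lower bound of this ratio, with WR at 0.518 of WB plus AV, and POX09323, at 0.464, was left out by that bound alone. POX07850 had the highest ratio in the list, at 1.59, while POX03547, at 2.38, was left out. For the ratio of WB to WB plus AV, POX01065 was just inside at 2.01 and POX02111 just outside at 1.99, and 93 genes met every condition but this one. For WB to WR the nearest were POX01435 at 2.02 and POX03468 at 1.98. The WB mean of POX00397 was 12.7 FPKM, the lowest inside, and that of POX03379 was 8.80 FPKM. POX05343 failed a single condition, since WB plus AV replicate 2, at 311 FPKM, was above its lowest WB library, at 305 FPKM.

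The genes outside the list with the most similar profile over the 9 EU2101 libraries were POX09512, POX04352, POX04450 and POX00250, at r = 0.984, 0.983, 0.980 and 0.977. POX09512 averaged 67.7 FPKM on WB plus AV, 67.8 FPKM on WR and 116 FPKM on WB, a ratio of WB to WB plus AV of 1.70, below the bound. POX04352 met every condition on the carbon sources, with 20.9 FPKM on WB plus AV, 12.3 FPKM on WR and 86.3 FPKM on WB, and was left out by its ratio of MuPOX03016 to MuKu70, 2.08. POX04450 and POX00250 were left out by ratios of WB to WB plus AV of 1.79 and 1.93.

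The effective length behind each value, that is, the gene length over which a fragment can start, followed from the count, the FPKM value and the library total. In EU2101 it was 182 to 4759 bp with a median of 1174 bp over the 83 members with enough counts, against a median of 1238 bp over 7146 genes at 10 FPKM or more on WB. Lengths under 500 bp were found in 8.43% of the members and in 11.5% of those genes. Fractional counts, a sign of reads divided between genes, were found in 7 members in a mutant library (8.24%, against 14.9% of all genes). No member had one in any EU2101 library. The share of all genes is not given for EU2101, so nothing about the members is read from this absence. Identifier numbers ran on directly in 2 pairs of members, POX01690 with POX01691 and POX03135 with POX03136. How many such pairs a list of this size would hold otherwise was not worked out, so nothing is read from them.

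Strain MuKu70 on WR can be set beside EU2101 on WR, the only carbon source on which both were grown. Strain went together with the set of libraries, and the sets differed in gene models and in depth. Total counts were 3372763 to 3414915 in EU2101 on WR and 6753528 to 7335888 in MuKu70. A difference between strains cannot be told apart here from one between sets of libraries. The contrast of MuKu70 with EU2101 on WR was not part of the rule. However, the rule asked for low levels in the WR libraries of EU2101, so those libraries are not independent of the choice. The MuKu70 libraries are not independent of it either, since they entered the rule through their ratio to MuPOX03016. With 1 FPKM added to each mean, a gene at 0 in both mutants met that condition whatever its level in EU2101. The rule also asked for 10 FPKM on WB in EU2101, a floor that the genes behind the shares below did not have to meet. Those shares are therefore not matched for level in EU2101. By FPKM, the median log2 ratio of MuKu70 to EU2101 on WR was -0.96 in the members. It was -0.11 over all genes at 10 FPKM or more on WB. Gene models also differed between the EU2101 and the mutant files. Of 72 members whose lengths could be compared, 58 had the same effective length in both apart from a common shift (80.6%, against 71.2% of all genes). Over the genes with the same length, edgeR called 37 of these 58 members lower in MuKu70 and 5 higher, against 24.9% and 26.6% of all 5192 genes tested. Their median log2 fold change was -0.92 and that of all these genes 0.03. Over all genes 53 of 83 members tested were called lower and 10 higher, against 31.3 and 31.5%. By FPKM, all 3 MuKu70 libraries lay below all 3 WR libraries of EU2101 in 57 of the 85 genes, against 37.1% of genes, and above them in 6, against 26.3%.

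Among the abundant members, POX00089 had 423, 520 and 519 FPKM in MuKu70 and 6290, 4285 and 6236 FPKM in EU2101 on WR, with no overlap between the strains. Its log2 fold change was -3.56 (SE 0.24, adjusted p = 6.69e-06 in edgeR). POX06753 averaged 2045 ± 320 FPKM in MuKu70 and 3995 ± 336 FPKM in EU2101 on WR. The largest differences were found in genes at or near 0 in the mutants. POX01065 and POX07835 were listed in no library of MuPOX03016 or MuKu70, and in EU2101 on WR they had 1045 and 462 counts. Against a floor of 3 counts per library they were at least 243-fold and 108-fold lower in MuKu70 (adjusted p = 2.70e-06 and 9.96e-06 in edgeR). A gene missing from the models behind the mutant files cannot be told apart here from one not expressed. POX02711 had 3.66, 2.21 and 0.90 FPKM in MuKu70 and 241, 157 and 182 FPKM in EU2101 on WR (log2 fold change -6.43, SE 0.37, adjusted p = 3.25e-06 in edgeR). Its counts in the mutants were fractional, so its level there is uncertain.

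POX04027 was the only member that lay above its WB level in MuKu70, with 544, 532 and 564 FPKM in MuKu70 and 127, 155 and 173 FPKM in EU2101 on WR, while its WB libraries held 269, 487 and 366 FPKM. The effective length behind it was 412 bp in the mutants and 199 bp in EU2101, so its fold change (log2 2.94, SE 0.12, adjusted p = 9.44e-07 in edgeR) compares different gene models. POX09210 and POX03135, which followed in the ranking by counts, had effective lengths of 566 and 8382 bp in the mutants against 241 and 4367 bp in EU2101. Their counts were higher in MuKu70 (log2 fold changes of 0.99 and 0.81, adjusted p = 2.48e-04 and 0.00145 in edgeR) but their FPKM means were lower, at 317 and 55.4 FPKM in MuKu70 against 384 and 62.4 FPKM in EU2101 on WR. The 5 members called higher over genes of the same length, named after their values were seen, were POX00770, POX00842, POX03937, POX07616 and POX08943. POX00770 averaged 120 ± 9 FPKM in MuKu70 and 72.7 ± 11.6 FPKM in EU2101 on WR.

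**Figure D5:**
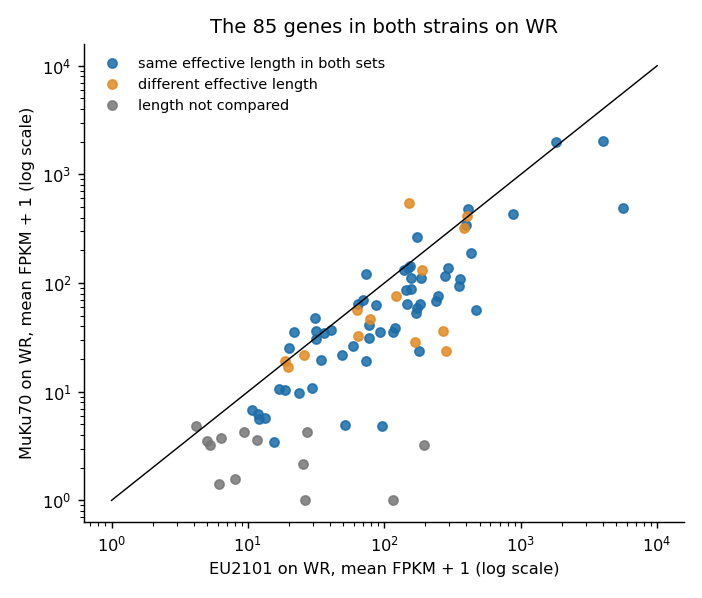
Mean FPKM + 1 of the 85 genes in MuKu70 (y axis) and in EU2101 (x axis) on WR, both axes on a log scale, with the line of equal values and colours for whether the effective length was the same in both sets of files. Most points lie below the line, POX04027 (different length) is the farthest above it, and POX01065 and POX07835 lie at the bottom with 0 FPKM in MuKu70.

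Between MuPOX03016 and MuKu70 the rule kept the members within a factor of 2 after 1 FPKM was added to each mean. Their differences are therefore a description. The ratios of FPKM between these strains, here and below, carry this added 1 FPKM, and members near 0 can differ by a larger factor without it. The median log2 ratio of FPKM was -0.14 with a range of -0.97 to 0.76, and the median of all genes at 10 FPKM or more on WB was -0.12. With TMM factors these medians were -0.02 for the members and 9.29e-04 for all genes. The MuPOX03016 and MuKu70 libraries overlapped in 55 genes, all MuPOX03016 libraries were the lower in 25 (28.8% of all genes) and the higher in 5 (12% of all genes). In edgeR, 6 of 79 members tested were called higher and 4 lower, against 10.8 and 7.55% of all genes, and limma on log2(FPKM + 1) called 1 higher and 9 lower, against 6.26 and 11.9% of all genes. The 10 edgeR calls came down to 1 without MuKu70 replicate 1, 3 without MuPOX03016 replicate 3, and 4 without MuPOX03016 replicate 2 or MuKu70 replicate 3. The share of all genes called in these fits lay between 6.78 and 15.8%, against 18.4% with all libraries. POX00835 had the highest ratio, with 157, 191 and 123 FPKM in MuPOX03016 and 79.6, 126 and 70.3 FPKM in MuKu70, and the strains overlapped by a single library. POX05529 and POX08477 followed, with 6.97 ± 2.03 and 33.4 ± 3.0 FPKM in MuPOX03016 and 3.80 ± 2.13 and 20.8 ± 6.0 FPKM in MuKu70. The counts of POX05529 were fractional in all 6 mutant libraries, as were those of POX03135 and POX02711, so their levels there are uncertain.

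With 1 FPKM added to each mean, POX03135 had the lowest ratio and lay at the bound. It had 31.0, 26.0 and 26.3 FPKM in MuPOX03016 and 54.3, 60.9 and 51.0 FPKM in MuKu70, without overlap. POX02711 and POX07894 came next, with 0.69 ± 0.45 and 10.2 ± 1.0 FPKM in MuPOX03016 and 2.26 ± 1.38 and 18.6 ± 4.8 FPKM in MuKu70. On counts, the log2 fold change of POX02711 was -1.51 (SE 0.63, adjusted p = 0.142 in edgeR), so it was within the factor of 2 only through the added 1 FPKM. POX00863 and POX08546 met every other condition and were left out by a ratio just above 2 and by one of 0.468. A different spread was seen in POX05577, chosen after its values were seen. It had 36.4, 316 and 34.8 FPKM in replicates 1, 2 and 3 of MuPOX03016 and 69.6, 242 and 30.9 FPKM in those of MuKu70, so that replicate 2 was the highest in both mutants. In EU2101 the same gene had 150, 238 and 222 FPKM on WB plus AV, 222, 245 and 363 FPKM on WR, and 586, 744 and 810 FPKM on WB.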

How the data were processed

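Each deposited file holds 1 library. The expected counts (estimated read counts per gene) were made by the authors, per the file headers, and need not be whole. FPKM values were deposited beside them, and genes at 0 are not listed. Per the submitters' processing notes, which give no roles, the tools were RSEM 1.2.12, Bowtie2 2.1.0, BWA 0.7.10-r789 and DESeq2. Build and annotation are likewise not given in the sources used here. Members were chosen on FPKM as deposited. Expected counts were rounded and tested in edgeR 4.0.16 (R 4.3.3; TMM scaling, filterByExpr at a minimum count of 10, quasi-likelihood test, Benjamini-Hochberg adjustment over all genes tested, threshold 0.05), after a check on simulated data. The 9 EU2101 libraries shared a fit, and each comparison between strains used its 6 libraries. Standard errors are the log2 fold change over the square root of F. Effective length is the count divided by FPKM and by the library total, from at least 20 counts and 5 FPKM, compared with a tolerance of 20 bp around the common shift. No replicate pair was as close as sampling noise alone allows (chi-square over degrees of freedom 7.96 to 56.5). On WB plus AV and WB, same-numbered libraries deviated together from their group means (r = 0.494, 0.457 and 0.329), as did those on WR and WB plus AV (r = 0.230, 0.302 and 0.159), for which no calls are given, and this correlation is the only source of the pairing. Limma 3.58.1 and DESeq2 1.42.0 served as alternatives. Counts without molecular identifiers give floors that cover counting error only. The members, rules for named genes and tests were chosen with earlier results of these data known. The genes named are the 8 highest on WB, the 8 with the widest gap, the extremes between strains and of WB replicate 1, the neighbours of each threshold and the 4 most similar profiles, and others are marked as chosen later. Lists by gene product could not be formed, as 0 identifiers matched the table of gene names.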

Additional observations from a re-analysis of the deposited data

How the results depend on the processing

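The rule found 66 to 96 genes under other settings (pseudocounts of 5 and 0.1, TPM, TMM factors, a WB minimum of 20 or none) and 13 with a ratio of at least 3. Of the 85 members, 63 were found again with TPM, 63 with TMM factors and 71 with a pseudocount of 5. With a pseudocount of 0.1, a WB minimum of 20 or none, 81 to 85 were. Without 1 library in turn the rule found 75 to 235 genes. Of the 85, these included 67 without WB replicate 2 and 67 without WB replicate 3. They included 68 without WB plus AV replicate 1, 75 without WB plus AV replicate 3, and 81 to 85 without any other library. Members called on WB plus AV against WB numbered 80 in DESeq2 (547 of all genes), against 14 (95) as reported. In limma they numbered 25 on log2(FPKM + 1) (116 of all genes) and 27 on log2(FPKM + 5) (122). They numbered 75 with the replicate block (510) and 0 with only the 2 groups in the edgeR fit (3 of all genes). In that 2-group fit 83 members had an unadjusted p under 0.05, in a contrast that the rule had used. Without 1 library the adjusted calls of members numbered 0 to 84 (4 to 1769 of all genes), and on WR against WB 33 to 84 (548 to 2962). Leaving out a library of the third EU2101 group was added after seeing the data, as were the medians under other scalings; the median of MuPOX03016 over MuKu70 was -0.02 with TMM factors, against -0.14 on FPKM as deposited. For MuPOX03016 against MuKu70 the range was 1 to 8 (6.78 to 15.8% of all genes), against 10 with all libraries (18.4%). The count was 1 without MuKu70 replicate 1, 3 without MuPOX03016 replicate 3, and 4 without MuPOX03016 replicate 2 or MuKu70 replicate 3. Members called higher in MuKu70 than in EU2101 on WR numbered 6 in limma with either pseudocount (21.7% of all genes) and 5 over genes of the same length (26.6%). Leaving out 1 library gave 8 to 9 higher (27.4 to 30.0% of all genes) and 50 to 54 lower (27.2 to 30.4%). In all it gave 58 to 63 (55.4 to 60.1% of all genes). POX03135 reversed in limma (-0.16 on log2(FPKM + 1), -0.15 on log2(FPKM + 5)), as did POX09210 (-0.27 and -0.27), both having other effective lengths in the mutants. With libraries 1 held out, 143 genes met the condition at any ratio. In the other 3 comparisons with a test the replicate numbers did not pair the libraries (lowest r = 0.061, 0.039 and 0.011). There the block gave 83 members on WR against WB (28.4% of all genes called) and 14 in MuPOX03016 against MuKu70 (22.7%). It gave 62 in MuKu70 against EU2101 on WR (61.6%). Each library correlated best with its own number in the first and second of these comparisons and not in the third. Depth limits POX07035 and POX07850 most.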
